A study of Homo sapiens with 6 samples.

Results

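The neuronal cytoskeleton genes described here are 10 genes chosen by name. They comprise 5 intermediate filament genes (NEFL, NEFM, NEFH, INA and PRPH), 4 microtubule genes (DCX, STMN2, MAP2 and TUBB3) and the growth cone gene GAP43. Of these, 9 were measured among 18404 genes in all, each by a single row of the deposited table. TUBB3, a neuronal beta-tubulin, is not analysed here because its row is also annotated to a second gene. RNA was measured in BE(2)-C cells, a human neuroblastoma line with amplified MYCN, on Affymetrix gene-level arrays with 1 array per sample. In 3 samples the cells received 5 µM BIX01294, which inhibits the EHMT2 and EHMT1 enzymes that methylate histone H3 at lysine 9, for 24 h. In the other 3 they received 0.05% DMSO, the solvent, for 24 h, and no DMSO content is recorded for the BIX01294 samples. All samples come from 1 established line grown in medium with dialyzed serum, and other neuroblastoma cells were not measured.

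Neurofilaments are the intermediate filaments of neurons. They assemble from the light, medium and heavy chains together with alpha-internexin or peripherin, and they fill and widen axons. Microtubules are built from alpha- and beta-tubulin and serve as tracks for axonal transport, and proteins such as doublecortin, stathmin-2 and MAP2 set how stable or dynamic they are. Neuroblastoma arises from the sympathetic lineage, and its cells express many of these neuronal genes.

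Most of the intermediate filament genes rose after BIX01294, while the microtubule regulators DCX and STMN2 fell. Of the 5 intermediate filament members, 4 rose and none fell, led by the heavy chain NEFH (1.60-fold). Of the 3 measured microtubule members, DCX fell 1.67-fold and STMN2 fell 1.37-fold, and MAP2 did not pass the test. GAP43 rose 1.30-fold. A gene was called changed when its adjusted p was under 0.05 in limma, a linear model with moderated variances, after Benjamini-Hochberg adjustment over all 18404 genes. By this rule 23.6% of all genes were called, 12.9% higher and 10.7% lower, so the 7 of 9 members called stand against a background in which calls were common. The members were picked for their role and with earlier results of these data known, and they are not a random draw. Because the RNA comes from whole cultures, fewer cells that express a gene and less RNA per cell cannot be told apart.

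**Figure D1:**
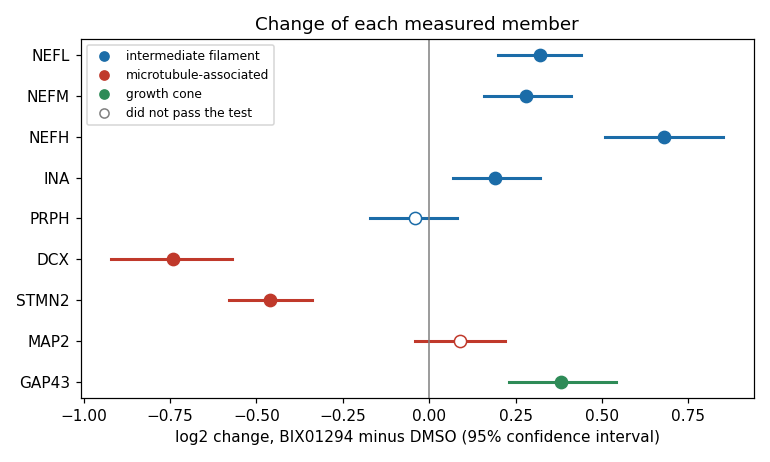
Log2 change (BIX01294 minus DMSO, horizontal axis) of the 9 measured members, with bars for 95% confidence intervals from limma and colours for the role. Filled points passed the test and open points did not; 4 of 5 intermediate filament genes and GAP43 lie right of 0, while DCX and STMN2 lie left of it.

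Among the 5 intermediate filament members, NEFH changed most. NEFH encodes the neurofilament heavy chain, whose long tail is heavily phosphorylated in mature axons. Its log2 values were 9.92, 9.90 and 9.96 on the BIX01294 arrays, against 9.13, 9.40 and 9.22 on the DMSO arrays. All BIX01294 arrays lay above all DMSO arrays, and the spread was wider in DMSO (SD 0.14) than in BIX01294 (SD 0.03, n = 3 each). The log2 change was 0.68 ± 0.075 (SE), with an adjusted p of 0.000617 in limma, and 1.95% of all genes had a larger absolute change.

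The light chain NEFL, which forms the core on which the other chains assemble, rose less. NEFL measured 11.97, 11.98 and 12.02 on the BIX01294 arrays, against 11.65, 11.70 and 11.66 on the DMSO arrays. The groups did not overlap, and the spread within each was at most 0.03 (SD). Its log2 change was 0.32 ± 0.051 (SE), a 1.25-fold rise with an adjusted p of 0.00309 in limma.

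The medium chain NEFM moved almost exactly as the light chain did. NEFM had log2 values of 11.80, 11.80 and 11.85 on the BIX01294 arrays, against 11.54, 11.57 and 11.48 on the DMSO arrays, again without overlap. It rose 1.22-fold (log2 change 0.28 ± 0.054 SE, adjusted p 0.00725 in limma). RefSeq (GRCh38.p14) places NEFL and NEFM on chromosome 8, NEFH on chromosome 22, INA on chromosome 10 and PRPH on chromosome 12.

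INA, alpha-internexin, is a neurofilament subunit that appears early in developing neurons. Its log2 values were 12.46, 12.54 and 12.54 on the BIX01294 arrays, against 12.33, 12.29 and 12.35 on the DMSO arrays. The groups did not overlap, but the log2 change was small, 0.19 ± 0.054 (SE; adjusted p 0.037 in limma). The call on INA was lost without BIX01294 replicate 2 or 3 or any 1 of the DMSO replicates (adjusted p 0.0501 to 0.122) and after quantile normalization (adjusted p 0.0581), while its direction held.

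PRPH, peripherin, the intermediate filament protein typical of peripheral and autonomic neurons, did not pass the test. It measured 11.25, 11.26 and 11.20 on the BIX01294 arrays, against 11.33, 11.24 and 11.27 on the DMSO arrays, and the groups overlapped. The log2 change was -0.04, with a 95% confidence interval of -0.17 to 0.08 and an adjusted p of 0.641 in limma. The upper bound of that interval lies below the lower bounds for NEFL (0.20), NEFM (0.16) and NEFH (0.51), but not below that for INA (0.07).

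The changes of the intermediate filament members differed in size. With each difference set to 0 at its DMSO mean, NEFH minus NEFL was 0.36, 0.34 and 0.36 on the BIX01294 arrays, against -0.10, 0.12 and -0.02 on the DMSO arrays. PRPH minus NEFL was -0.33, -0.33 and -0.43 on the BIX01294 arrays, against 0.07, -0.07 and 0.00 on the DMSO arrays. NEFM minus NEFL, by contrast, ran from -0.05 to -0.03 on the BIX01294 arrays and from -0.04 to 0.03 on the DMSO arrays, and these ranges overlapped. These pairs were chosen after the values were seen and carry no test.

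**Figure D2:**
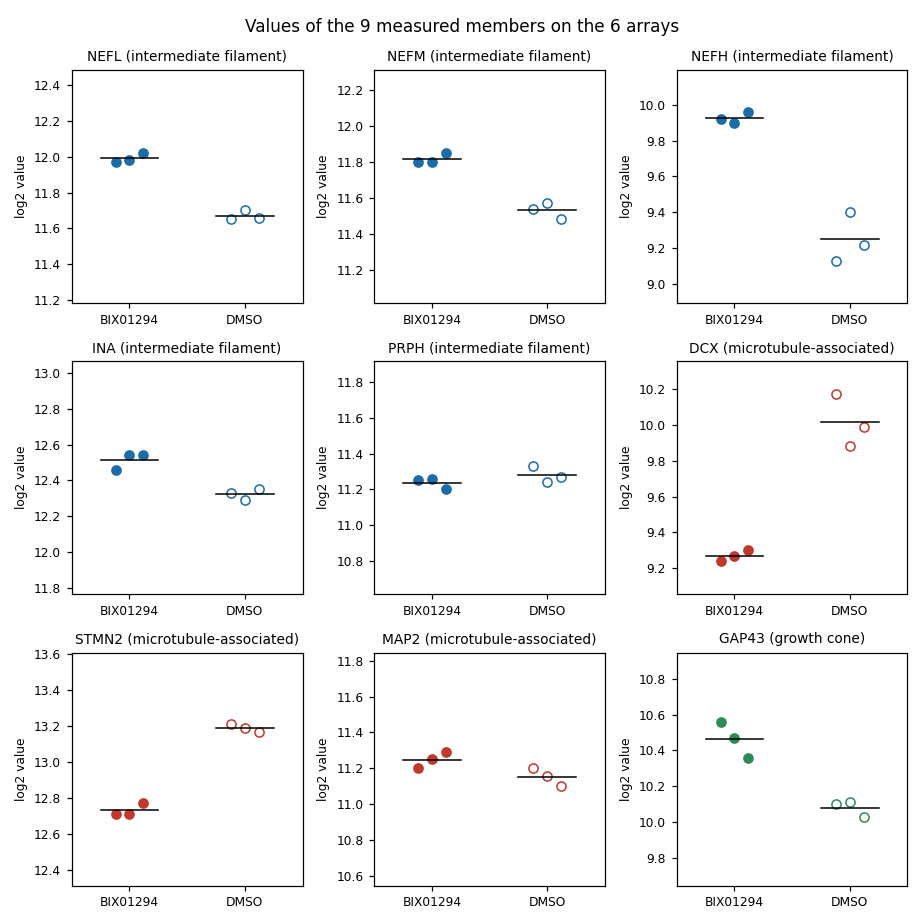
Log2 values of the 9 measured members, with 1 panel per gene, each spanning the same height around its own values, since levels of different probes are not compared. Filled points are the 3 BIX01294 arrays, open points the 3 DMSO arrays and lines the group means; the groups overlap only for PRPH and MAP2.

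DCX had the largest change of the 9 members. DCX encodes doublecortin, a protein of migrating, immature neurons that binds and stabilises microtubules. Its log2 values were 9.24, 9.27 and 9.30 on the BIX01294 arrays, against 10.17, 9.88 and 9.99 on the DMSO arrays. The groups lay more than the whole DMSO range apart, and the spread was wider in DMSO (SD 0.14) than in BIX01294 (SD 0.03, n = 3 each). The log2 change of DCX was -0.74 ± 0.077 (SE; adjusted p 0.000464 in limma), and 1.45% of all genes had a larger absolute change.

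STMN2, stathmin-2, is a neuron-specific protein that binds free tubulin and acts at growing axon tips. It measured 12.71, 12.71 and 12.77 on the BIX01294 arrays, against 13.21, 13.19 and 13.17 on the DMSO arrays, with no overlap and an SD of at most 0.03 in each group. Its log2 change was -0.46 ± 0.052 (SE; adjusted p 0.000674 in limma). RefSeq (GRCh38.p14) places DCX on chromosome X, STMN2 on chromosome 8, MAP2 on chromosome 2 and GAP43 on chromosome 3.

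MAP2, a microtubule-associated protein of dendrites and the neuronal cell body, did not follow DCX and STMN2. Its log2 values were 11.20, 11.25 and 11.29 on the BIX01294 arrays, against 11.20, 11.16 and 11.10 on the DMSO arrays, so that the groups met at their edges. The log2 change was 0.09, with a 95% confidence interval of -0.04 to 0.22 and an adjusted p of 0.29 in limma. The lower bound of that interval lies above the upper bounds for DCX (-0.57) and STMN2 (-0.34).

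GAP43, a membrane protein of growth cones that is high during axon growth and regeneration, rose. It measured 10.56, 10.47 and 10.36 on the BIX01294 arrays, against 10.10, 10.11 and 10.03 on the DMSO arrays. The groups did not overlap, and here the wider spread was in BIX01294 (SD 0.10) rather than in DMSO (SD 0.04, n = 3 each). The log2 change was 0.38 ± 0.066 (SE), with an adjusted p of 0.00432 in limma.

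Set side by side, the means of the intermediate filament and microtubule members lay apart on the BIX01294 arrays. Relative to its DMSO mean, the mean of the 5 intermediate filament members was 0.27, 0.28 and 0.30 on the BIX01294 arrays, against -0.01, 0.03 and -0.01 on the DMSO arrays. The mean of DCX, STMN2 and MAP2 was -0.40, -0.37 and -0.33 on the BIX01294 arrays, against 0.07, -0.04 and -0.03 on the DMSO arrays. The difference between these means therefore changed by 0.66 on the log2 scale, a description with no test, since the genes share the arrays. The lower microtubule mean came from DCX and STMN2, and MAP2 did not pass the test. It does not stand for microtubule genes at large. The median change was 0.03 over 31 other microtubule-associated genes and 0.46 over 12 alpha- and beta-tubulins. The median change was 0.28 over the intermediate filament members and -0.46 over the microtubule members, against -0.01 over all genes tested. Groups did not overlap in 7 of the 9 members, 5 with every BIX01294 array above and 2 with every one below. Among all genes the groups did not overlap in 40.1%, with 21.4% above and 18.7% below.

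**Figure D3:**
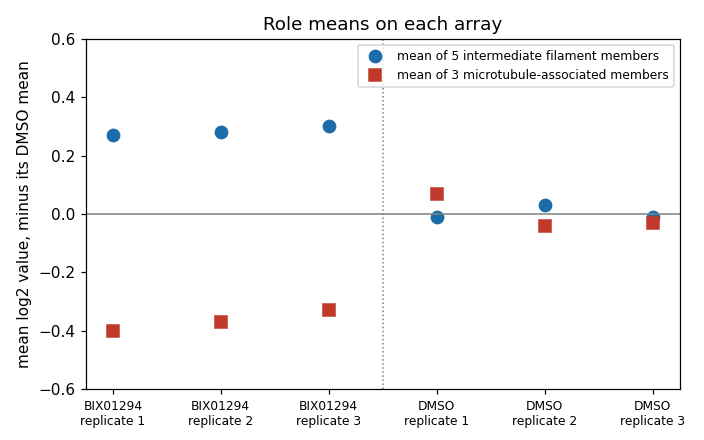
Mean log2 value of the 5 intermediate filament members (circles) and of DCX, STMN2 and MAP2 (squares) on each of the 6 arrays, minus the same mean over the DMSO arrays. The BIX01294 arrays lie at 0.27 to 0.30 for the filaments and at -0.40 to -0.33 for the microtubule members, while the DMSO arrays stay between -0.04 and 0.07.

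RefSeq promoter windows of 300 bases (250 before and 50 after the annotated start, build GRCh38.p14) were found for 5 of the 9 measured members. Those of INA and GAP43, which rose, and of DCX, which fell most, are shown because they differ plainly in base composition. Capitals mark CpG, the dinucleotide at which vertebrate DNA is methylated. For DCX, which has 3 annotated starts, the window of the most upstream start is given. They lie at chr10:103276888-103277187 (plus strand), chr3:115623260-115623559 (plus strand) and chrX:111412143-111412442 (minus strand) and read, 5′ to 3′:
INA: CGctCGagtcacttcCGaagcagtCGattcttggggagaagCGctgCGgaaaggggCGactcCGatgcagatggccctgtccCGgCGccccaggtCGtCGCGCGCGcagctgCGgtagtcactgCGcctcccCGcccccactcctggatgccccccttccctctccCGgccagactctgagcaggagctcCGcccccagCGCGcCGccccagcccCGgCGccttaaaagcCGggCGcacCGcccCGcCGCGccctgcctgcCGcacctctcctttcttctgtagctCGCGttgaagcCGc
GAP43: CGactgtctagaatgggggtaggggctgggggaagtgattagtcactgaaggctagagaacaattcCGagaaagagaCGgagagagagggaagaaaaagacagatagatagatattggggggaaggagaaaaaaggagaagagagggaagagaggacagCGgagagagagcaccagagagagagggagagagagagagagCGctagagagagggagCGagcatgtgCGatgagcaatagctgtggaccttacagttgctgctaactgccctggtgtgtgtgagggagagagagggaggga
DCX: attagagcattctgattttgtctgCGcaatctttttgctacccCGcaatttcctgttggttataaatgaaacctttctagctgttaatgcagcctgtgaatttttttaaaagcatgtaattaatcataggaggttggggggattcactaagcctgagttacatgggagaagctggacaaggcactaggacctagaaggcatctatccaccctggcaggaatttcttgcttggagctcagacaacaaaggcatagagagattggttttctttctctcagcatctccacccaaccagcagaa

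The INA window holds 35 CpG, the GAP43 window 7 and the DCX window 2, against a median of 14 over the 35116 windows in the table. The windows of PRPH and MAP2, which did not pass the test, hold 13 and 7. MAP2 also has 3 annotated starts, and only the window of its most upstream start was counted. In these windows GAP43, which rose, and MAP2, which did not pass, have the same count. Searched on both strands, the TATA box letters TATAAA occur once in the DCX window and once in that of PRPH and not in those of INA, GAP43 and MAP2, while 11.5% of all windows hold them. The E-box CACGTG, the preferred letters of MYC-family proteins, occurs in none of the 5 windows and in 7.26% of all. Its general form CANNTG, which includes CACGTG, occurs in 4 of the 5, all but that of DCX, and in 68.7% of all windows. These are counts of letters in a window and say nothing about binding.

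The other genes of the cytoskeleton were read from lists set by role, with earlier results of these data known. Of 21 measured genes for tubulins, their folding factors and tubulin tyrosine ligase, 12 rose and 1 fell, with a median change of 0.29, against 12.9% higher and 10.7% lower among all genes. The folding factor TBCA did not pass in the row used (log2 change -0.15). Its second row went the other way (0.28, adjusted p 0.0345 in limma over all rows with a symbol). Split by name, 10 of the 12 alpha- and beta-tubulins rose, by 0.25 to 0.77, and none fell. This split was not among the planned results. The 10 include the dim TUBB1 (percentile 12.8 of mean level), which kept its call in 9 of 14 alternatives. Over all 12 the changes ran from 0.03 to 0.77. TUBA1A, the main alpha-tubulin of developing neurons, measured 12.64 ± 0.02 in BIX01294 and 11.87 ± 0.03 in DMSO (SD, n = 3 each), a 1.70-fold rise. TUBB4B, a widely expressed beta-tubulin, rose 1.62-fold, and TUBB2A, a beta-tubulin abundant in neurons, rose 1.61-fold, with a log2 change of 0.62 in its second row. The other 9 rises lay between 0.25 and 0.63. TUBE1, epsilon-tubulin of the centriole, fell by 0.72 ± 0.070 (SE), with an adjusted p of 0.000341 in limma. Tubulin genes are close copies of each other, and probes can share targets, so rises of single members are uncertain.

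The other intermediate filament genes rose in 6 of 12 cases and fell in none, with a median of 0.19. Among all genes, 12.9% were higher and 10.7% lower. Among genes above the median level of all genes, 7 of the 8 that remained rose, with a median of 0.40. That filter uses the mean of all 6 arrays, so a gene can pass it through its BIX01294 values. KRT19 and NES, which rose, lay only just above that median (percentiles 50.6 and 52.3 of mean level). The filtered share and median are therefore given only as a description. Calls were also more common under the filter. Of the 9193 genes above the median level, 2850 were called higher and 1899 lower. Without the filter, 2379 of 18404 genes were called higher and 1970 lower. The background for the 7 of 8 is therefore the filtered count and not the 12.9%. SYNM, synemin, a large filament protein that joins vimentin or desmin networks, rose 1.83-fold (log2 change 0.87 ± 0.071 SE, adjusted p 0.000169 in limma). VIM, vimentin, the filament of mesenchymal and immature cells, rose by 0.82 ± 0.064 (SE; adjusted p 0.000132 in limma). The nuclear lamin LMNB1 rose 1.38-fold and the keratin KRT19 1.33-fold. Among 11 measured partners of neurofilaments (crosslinkers, kinases and degradation factors), 2 rose and none fell, against the same shares among all genes. CDK5R2, an activator of the neuronal kinase CDK5, rose 1.27-fold. CDK5, which phosphorylates neurofilament tails, rose 1.21-fold (adjusted p 0.046 in limma). The count of partners was 1 without BIX01294 replicate 1 or 2 or any 1 of the DMSO replicates. Leaving out any 1 array also lowered the calls over all genes, from 2379 higher and 1970 lower. Between 1699 and 1910 were then higher and between 1318 and 1818 lower.

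Of 31 other microtubule-associated genes measured, 5 rose, 4 fell and 22 did not pass, with a median of 0.03. These shares lie near the 12.9% higher and 10.7% lower among all genes, so the mixed directions are not particular to this list. MAP1A, a microtubule-associated protein of mature neurons, measured 10.02 ± 0.02 in BIX01294 and 9.13 ± 0.11 in DMSO (SD, n = 3 each), a 1.85-fold rise. DCLK1, a kinase related to doublecortin, rose 1.45-fold, opposite to DCX, but its mean level was below the median of all genes (percentile 34). The plus-end binding protein MAPRE3 rose 1.44-fold. CLASP2, which stabilises microtubule plus ends, fell 1.47-fold (adjusted p 0.000422 in limma). Without BIX01294 replicate 2 or 3 or DMSO replicate 1 or 3, 3 of these genes rose. Calls over all genes were also fewer without any 1 array.

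Among 19 motor genes of axonal transport, 4 rose and 2 fell, with a median of 0.04, against 12.9% higher and 10.7% lower among all genes. DYNC1I1, a dynein intermediate chain of neurons, rose 1.72-fold, while KIF5A, a neuronal kinesin heavy chain that moves neurofilaments, fell by 0.52 ± 0.073 (SE), with a change of -0.60 in its second row. KIF5C, a related neuronal kinesin, rose 1.21-fold, and the dynein chain DYNC1I2 rose 1.19-fold, though the difference in its second row, 0.14, did not pass. The rising motors numbered 2 without BIX01294 replicate 3, and 1 motor fell without BIX01294 replicate 1 or 3 or DMSO replicate 1 or 2. Calls over all genes were also fewer without any 1 array.

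Growth cone and actin genes, the surroundings of GAP43, rose in 5 of 25 measured cases and fell in 2, with a median of 0.05. Among all genes, 12.9% were higher and 10.7% lower. CNTN1, an adhesion molecule of axons, fell by 0.56 ± 0.054 (SE), with an adjusted p of 0.000324 in limma. LIMA1, which crosslinks actin, fell 1.22-fold. The actin-monomer binding genes TMSB10 and PFN2 rose 1.28-fold and 1.27-fold. Leaving out BIX01294 replicate 1 or 2 lowered the rising genes to 3, and leaving out BIX01294 replicate 3 or DMSO replicate 1 or 2 lowered them to 2. In the membrane skeleton of the axon initial segment, 2 of 11 measured genes fell, against 10.7% of all genes, and none rose. The adducin ADD3 fell 1.37-fold and the ankyrin ANK2 1.18-fold (adjusted p 0.0284 in limma). Of these, 1 fell without BIX01294 replicate 2 or 3 or DMSO replicate 1 or 2. Both lists were read in this way while calls over all genes also dropped, to between 1699 and 1910 higher and between 1318 and 1818 lower.

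**Figure D4:**
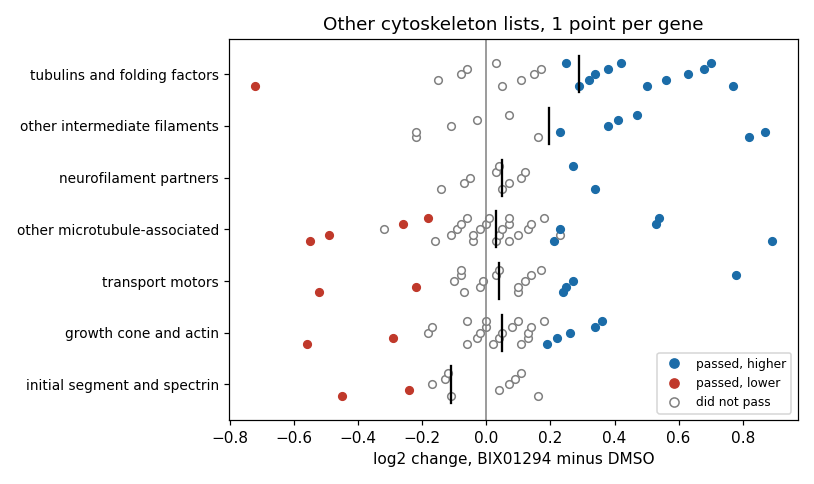
Log2 change (BIX01294 minus DMSO) of the measured genes of 7 other cytoskeleton lists, 1 point per gene, spread vertically only to separate points. Filled points passed the test, open points did not and black bars are list medians; the tubulin median is 0.29, and microtubule-associated genes lie on both sides of 0.

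The identity of the cells was read from noradrenergic neuroblast markers, the state this line is known for. All 11 measured markers lay above the median level of all genes, among them TH and DBH of catecholamine synthesis. Their mean level was 11.12 to 11.18 on the BIX01294 arrays and 11.11 to 11.14 on the DMSO arrays. Among all genes, 12.9% were higher and 10.7% lower. Of the 11 markers 4 rose (among them ISL1, 1.26-fold, HAND1, 1.18-fold, and GATA2, 1.15-fold) and 3 fell (among them GATA3, 1.18-fold). The rises numbered 2 without BIX01294 replicate 1 or 2 or any 1 DMSO replicate. The falls numbered 1 without BIX01294 replicate 1, 2 without BIX01294 replicate 2 or DMSO replicate 3, and 0 without BIX01294 replicate 3 or DMSO replicate 1 or 2. Calls over all genes were also fewer without any 1 array. Markers of mesenchymal or Schwann-like cells, which such a culture can also hold, had a mean level of 7.53 to 7.61 on the BIX01294 arrays and 7.43 to 7.44 on the DMSO arrays. Of 13 measured, 3 rose (VIM, CD44, 1.40-fold, and S100B, 1.34-fold) and 1 fell (TWIST1, 1.20-fold), against the same shares among all genes. Without BIX01294 replicate 3, 0 fell. Of these markers, 5 lay above the median level of all genes. The Schwann cell factor SOX10 measured 6.91 ± 0.09 in BIX01294 and 6.90 ± 0.08 in DMSO (SD, n = 3 each). The table holds no detection calls, so no marker can be called absent. The part of these marker shifts in the cytoskeleton results was not tested.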

How the data were processed

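RNA of 6 samples was measured, 3 with BIX01294 and 3 with DMSO, and groups were taken from the sample titles. The authors deposited 1 value per transcript cluster and array. The deposited values run from 1.93 to 14.93, and from this range they are log2 values. Partek is named in the submitters' processing notes; how background, scaling and probes were handled is not given in the sources used here. Array medians lay between 6.94 and 7.01, so a shift shared by most genes could have been removed before deposit. The design text calls the samples independent; without more detail, p-values measure the spread between these samples.

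Rows with exactly 1 gene symbol (19158 of 32321; 1388 had several and 11775 none) were kept, and for each gene the row with the highest mean. Symbols were updated by Entrez identifier through RefSeq (19128 rows matched). No coordinates of the array's probes are given. Values were tested as deposited in limma 3.58.1 (R 4.3.3), treatment as the only term, two-sided, adjusted over 18404 genes. Dim genes were kept, and the 3 arrays per group limit the precision. Standard errors (SE) and 95% confidence intervals come from the same fit. On 20 simulated data sets of 18404 genes, 93.1% of changes of 0.5 and 99.9% of changes of 1 on the log2 scale were recovered, with 4.9% false calls. Each simulation changed 200 genes, against 4349 called here, so its rates need not hold for these data. Changes under 0.5 were not simulated.

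Members and lists were chosen with earlier results of these data known. Named genes are all members and, from each other list, at most 4 past the threshold by size of change. TH, DBH, SOX10 and TBCA, and TUBB3 as not analysed, were named after their values or rows were seen. Alternatives were quantile normalization, centring on array medians, 2 filters on dim genes, averaging a gene's rows, all rows with a symbol, a robust fit with an intensity trend, weighting of arrays, a replicate block, a minimum log2 change of 0.5 (limma's treat), and leaving out each array.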

Additional observations from a re-analysis of the deposited data

How the results depend on the processing

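Over 16 alternatives, the 9 members gave 144 values, of which 130 kept direction and call, 14 lost the call and 0 reversed. NEFL, NEFM, NEFH, DCX, STMN2 and GAP43 lost their call only when a change of more than 0.5 on the log2 scale was required. Under that minimum 64 genes were called higher and 81 lower, and 0 intermediate filament and 0 microtubule members were called. The other 8 losses were those of INA, including array omissions. Leaving out 1 array gave changes of 0.62 to 0.75 for NEFH and of -0.81 to -0.67 for DCX. NEFH was lowest and DCX highest on DMSO replicate 1, and without it the changes were 0.62 and -0.67. Centring on array medians moved the median of all genes to 0.03, against -0.01 as deposited, and changed no member's call. Same-numbered samples did not deviate together (correlations 0.19, -0.18 and 0.05), and not every sample correlated best with its own number. With the replicate number as a block, 1987 genes were called higher and 1654 lower, and INA lost its call (adjusted p 0.076). As deposited, the counts were 2379 and 1970. The median of the other intermediate filaments was 0.40 among genes above the median level, against 0.19 as reported, and 0.31 for the tubulins, against 0.29. That filter can admit genes through their BIX01294 values. In the other lists, counts moved by more than 1.5 times as follows. The noradrenergic rises (4) were 2 after quantile normalization or with the block, and the falls (3) were 5 after quantile normalization, with either filter on dim genes or with an intensity trend, and 1 after centring or with the block. The growth cone rises (5) and falls (2) were 9 and 4 of 23 among genes above the median level and 8 and 4 of 25 with an intensity trend. Calls over all genes moved too. Above the median level, 2850 of 9193 genes were called higher and 1899 lower, and above the lower quartile 2712 and 2147 of 13794. With an intensity trend 2991 and 2333 genes were called. After quantile normalization these counts were 2256 and 2282, and after centring 2762 and 1536. The list counts in these settings therefore cannot be read against the shares as deposited. The falls in the initial segment list (2) were 1 after centring, and 1 member rose with the stricter filter or an intensity trend. The falling motors (2) were 1 after centring or with the block. The rising neurofilament partners (2) were 1 after quantile normalization or with array weights, and 1 partner fell after quantile normalization or with the stricter filter. The other microtubule-associated rises (5) were 3 with the block. With the minimum change, 0 or 1 gene per list was called in each direction. Levels near background cannot be told apart from it, but all 9 members lay above the median level.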

Other observations

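The genes whose profile over the 6 arrays lay closest to that of NEFH and of DCX were found by Euclidean distance between log2 values, each centred on its own mean, leaving out the cytoskeleton and marker lists. For NEFH they were MELK (distance 0.0923), DHCR7 (0.136) and CDC25A (0.143), with log2 changes of 0.64, 0.72 and 0.68. For DCX they were CALCOCO1 (0.104), TAS2R5 (0.12) and SLC43A1 (0.15), with log2 changes of -0.68, -0.70 and -0.73. With 2 groups of 3 arrays this distance mainly finds genes with a change of like size, so it is given as a description. MELK measured 10.30 on each BIX01294 array, against 9.58, 9.76 and 9.65 on the DMSO arrays, with its lowest value on the same array as NEFH.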
